A study of Mus musculus with 3 samples.

Results

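The genes of the DNA replication machinery were described in RAW 264.7 cells, an established mouse macrophage line, on 1-colour microarrays on which the brightness of a probe follows the abundance of its transcript. The group held 39 genes, chosen by function and with earlier results of these data known. They were found on the array by their symbol, out of 26840 genes with a symbol, and were read by 75 of the 56605 gene probes. There was 1 array for each of 3 conditions. Cells of the LPS array received LPS alone at 50 ng/mL, and no lactobacilli. Cells of the CRL1505 + LPS array were first kept for 24 h with *L. rhamnosus* CRL1505 at 50000000 cells/mL and washed, and those of the CRL1506 + LPS array with *L. plantarum* CRL1506 in the same way, before the same LPS dose. LPS, a bacterial ligand of TLR4, was left on the cells for 12 h according to the series text and for 3 h according to the sample descriptions. All conditions thus carry LPS, and no unstimulated array was analysed here. With 1 array per condition no test was possible, no p-value is given, and each ratio describes these arrays. The files place LPS and CRL1506 + LPS on 1 slide and in 1 scan run, and CRL1505 + LPS on a different slide in a different run, so that strain CRL1505 and slide cannot be told apart.

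Before a cell copies its DNA, the origin recognition complex, Cdc6 and Cdt1 load the MCM helicase onto origins. Cdc45 and the GINS complex then switch the helicase on, and primase, the polymerases, the sliding clamp and the ligase build the new strands from deoxynucleotides. Most of these genes are transcribed in late G1 and S phase under E2F factors, so their mRNA is abundant in dividing cells such as a macrophage line and low in resting ones.

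The macrophage label was checked against 10 marker genes, and all 10 were well above background on all 3 arrays. Of the other markers, none of 3 epithelial genes was, while 2 of 3 T cell genes and 1 of 3 B cell genes were on each array, and fibroblast genes were at 0 of 5 on LPS, 1 of 5 on CRL1505 + LPS and 3 of 5 on CRL1506 + LPS. The share of gene spots well above background was 54.5% on LPS, 48.5% on CRL1505 + LPS and 55.3% on CRL1506 + LPS, and the 75th percentile of the signal was 743.1, 517.0 and 697.9. The part of these differences between arrays in the ratios was not tested. All 39 replication genes were well above background on every array, and none of their spots was saturated or an outlier.

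In CRL1505 + LPS, 24 of the 39 replication genes were at least 2-fold lower than in LPS, and 0 were at least 2-fold higher. Over all 15603 genes compared, 8.41% were at least 2-fold lower and 9.93% at least 2-fold higher. A total of 37 replication genes lay below a log2 ratio of 0, where 49.3% of all genes did. Among them *Cdt1*, *Gins3* and *Gins4* changed sign under other scalings, and another probe of *Orc1* gave 0.60. *Mcm10*, above 0, changed sign under other scalings and probes. The median log2 ratio of the 39 genes was -1.23, a 2.35-fold lower signal. The median was 0.01 over all genes compared and 0.06 over those measured, that is, well above background on both arrays. The ratios ran from -3.04 for the thymidine kinase gene *Tk1* to 0.71 for the thymidylate synthase gene *Tyms*. At 4-fold, 5 genes were lower, namely *Tk1*, *Rrm2*, *Gmnn*, *Pold1* and *Mcm7*. Under scaling by the array median, *Gmnn* (-1.83), *Pold1* (-1.81) and *Mcm7* (-1.75) fell short of 4-fold. The other probe of *Mcm7* gave -1.62, and *Pold1* had only 1 probe. Over all genes compared, 1% lay at or below -2.29 and 2% at or below -1.83. Since RNA of a whole culture was measured, fewer replicating cells and less RNA in each cannot be told apart.

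In CRL1506 + LPS, 0 of the 39 genes were past 2-fold in either direction, where 3.53% of all 16279 genes compared were at least 2-fold lower and 5.67% at least 2-fold higher. The replication genes ran from -0.58 for *Tk1* to 0.22 for *Tyms* on the log2 scale. None was lower even by 1.5-fold, where 9% of all genes lay at or below -0.60. Their median log2 ratio was -0.29, against -0.06 over all genes, and 31 of 39 lay below 0, where 57.3% of all genes did, with 12 genes whose sign changed among the settings tried. The 2 ratios use the same LPS array, so they are set side by side here without a measure of likeness. *Tk1* was the lowest and *Tyms* the highest of the group in both.

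As a measure of spread, the log2 ratios of different probes of a gene had a median SD of 0.23 for CRL1505 + LPS and 0.21 for CRL1506 + LPS, over all genes with more than 1 probe. This spread covers probes and a single hybridisation, not cultures. In CRL1505 + LPS, 34 replication genes were below 0 by more than this SD, 4 were within it and 1, *Tyms*, was above. The corresponding numbers in CRL1506 + LPS were 25 below, 13 within and 1 above, again *Tyms*. Over all genes compared, the 33rd percentile was -0.24 and the 64th 0.22 in CRL1505 + LPS. In CRL1506 + LPS the 33rd percentile was -0.21 and the 75th 0.22.

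**Figure D1:**
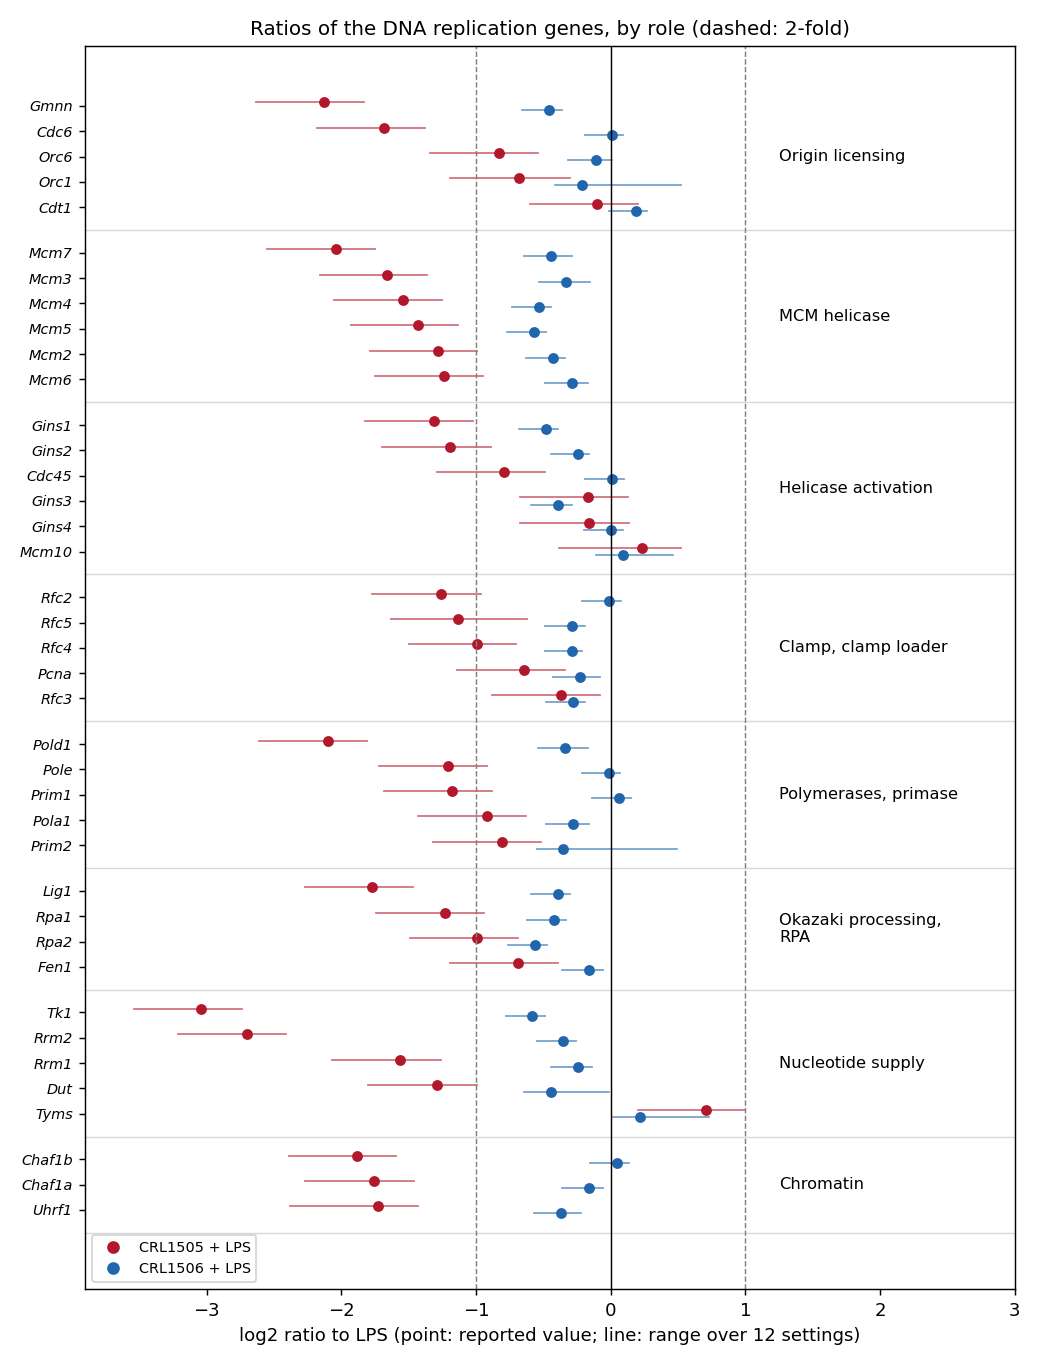
Log2 ratio to LPS of each of the 39 genes, grouped by role, for CRL1505 + LPS in red and CRL1506 + LPS in blue. Points are the reported values, lines run from the lowest to the highest value over 12 settings of the processing, and dashed lines mark 2-fold. Of the red points, 24 lie left of the 2-fold line, and the blue points all lie between -0.58 and 0.22.

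Promoters of the group were searched for the E2F element, since E2F factors are its known regulators. RefSeq promoters (GRCm38.p6, 250 bases before to 50 after the start) were found for 31 of the 39 genes. Exact matches to TTTCCCGC, TTTCGCGC, TTTGCCGC or TTTGGCGC on either strand were counted. A match was present in 13 of the 31 genes (41.9%), against 2.6% of all 27025 genes of the table. In the list of 42 other replication genes described below, 10 of the 37 with a promoter (27%) had a match. In the mitosis list described below, 1 of 23 did (4.35%). The CCAAT box, spelled CCAAT, was in 64.5% of the 31 genes and in 41.1% of all genes. The CHR element of mitotic promoters, searched as TTTGAA or TTCGAA on both strands, was in 19.4% of the 31 genes and in 21.7% of all genes. A match is a description of the letters in this window, and looser spellings of the element were not searched.

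Stretches of 150 bases before the start are shown for 5 of the 7 genes with an E2F match there, each read 5′ to 3′ along its gene with the match in capitals. They are the 3 with the lowest log2 ratios in CRL1505 + LPS (*Cdc6*, *Mcm5* and *Mcm6*) and the pair with the highest (*Rfc3* and *Gins3*). *Cdc6* is at chr11:98908001-98908150 on the plus strand, *Mcm5* at chr8:75109359-75109508 on the plus strand, *Mcm6* at chr1:128359706-128359855 on the minus strand, *Rfc3* at chr5:151651209-151651358 on the minus strand and *Gins3* at chr8:95633409-95633558 on the plus strand.
Cdc6: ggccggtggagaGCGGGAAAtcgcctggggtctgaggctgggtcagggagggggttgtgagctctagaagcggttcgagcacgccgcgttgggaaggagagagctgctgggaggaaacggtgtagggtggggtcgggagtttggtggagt
Mcm5: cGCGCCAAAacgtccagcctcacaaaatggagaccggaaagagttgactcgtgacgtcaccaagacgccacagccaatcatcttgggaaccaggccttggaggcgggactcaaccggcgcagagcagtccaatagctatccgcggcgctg
Mcm6: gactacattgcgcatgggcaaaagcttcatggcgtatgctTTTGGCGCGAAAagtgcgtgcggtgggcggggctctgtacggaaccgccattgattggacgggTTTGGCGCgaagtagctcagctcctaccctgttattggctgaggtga
Rfc3: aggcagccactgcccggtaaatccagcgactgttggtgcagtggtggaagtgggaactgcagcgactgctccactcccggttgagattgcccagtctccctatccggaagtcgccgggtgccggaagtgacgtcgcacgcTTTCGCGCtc
Gins3: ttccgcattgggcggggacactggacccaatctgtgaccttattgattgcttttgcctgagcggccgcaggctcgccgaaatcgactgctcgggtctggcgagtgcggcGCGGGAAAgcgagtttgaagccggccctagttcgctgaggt

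The *Mcm6* stretch holds 3 matches, an overlapping pair that begins 110 and 106 bases before the start and a single one at 47 bases. In *Mcm5* the printed match begins 149 bases before the start and overlaps one that begins at 153 bases, outside the stretch. The match begins 10 bases before the start in *Rfc3* and 41 bases before it in *Gins3*, and these genes had log2 ratios of -0.37 and -0.17 in CRL1505 + LPS. The 13 genes with a match had a median log2 ratio of -1.43 in CRL1505 + LPS, with 8 at least 2-fold lower. For the 18 genes without one the median was -1.15, with 10 at least 2-fold lower, and for the 8 genes with no promoter in the table it was -1.23, with 6 at least 2-fold lower. The ranges of the first 2 sets overlapped, from -2.10 to -0.10 with a match and from -3.04 to 0.71 without.

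Levels below are log2 signals relative to the 75th percentile of the same array, so that 0 is that percentile, and levels of different probes are not set against each other. Among the origin licensing genes, 2 of 5 were at least 2-fold lower in CRL1505 + LPS, with a median log2 ratio of -0.83. *Gmnn* encodes geminin, the inhibitor that binds Cdt1 after origins have fired. Its log2 level was 3.90 in LPS, 1.77 in CRL1505 + LPS and 3.44 in CRL1506 + LPS, which made it 4.37-fold lower in CRL1505 + LPS and lower by a log2 ratio of -0.46 in CRL1506 + LPS. For *Cdc6*, the loading ATPase whose promoter is shown above, the level was 0.65 in LPS, -1.03 in CRL1505 + LPS and 0.66 in CRL1506 + LPS. *Cdc6* was thus 3.20-fold lower with CRL1505 and level with LPS in CRL1506 + LPS, at a log2 ratio of 0.01.

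*Cdt1*, the partner of Cdc6 in loading and the target of geminin, had log2 levels of 4.93 in LPS, 4.84 in CRL1505 + LPS and 5.12 in CRL1506 + LPS. Its ratio in CRL1505 + LPS, -0.10, was within the spread between probes and changed sign among the settings, running from -0.60 to 0.20. *Orc1* and *Orc6*, subunits of the origin recognition complex, had log2 ratios of -0.68 and -0.83 in CRL1505 + LPS and of -0.21 and -0.11 in CRL1506 + LPS. The 3 probes of *Orc1* disagreed in sign, from -0.82 to 0.60 with CRL1505 and from -0.21 to 1.66 with CRL1506.

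All 6 MCM helicase genes were at least 2-fold lower in CRL1505 + LPS, with log2 ratios from -2.04 to -1.24 and a median of -1.48. Their products form the ring that unwinds DNA, 1 copy of each subunit per ring. In CRL1506 + LPS the 6 genes ran from -0.57 to -0.29 with a median of -0.43. Under the reported setting all were below 0 by more than the spread between probes, where 33% of all genes lay at or below -0.21. Other normalizations brought *Mcm3* to -0.15 and *Mcm6* to -0.17, and the second probe of *Mcm7* gave -0.15, all within that spread. *Mcm7* had a log2 level of 4.38 in LPS, 2.34 in CRL1505 + LPS and 3.94 in CRL1506 + LPS. The level of *Mcm3* was 6.07, 4.41 and 5.74 in the same order, and its 4 probes gave log2 ratios from -1.67 to -1.40 in CRL1505 + LPS. In both genes LPS was highest, CRL1506 + LPS next and CRL1505 + LPS lowest.

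*Mcm4* stood at 4.07 in LPS, 2.52 in CRL1505 + LPS and 3.54 in CRL1506 + LPS. *Mcm5* followed the same order at 4.63, 3.20 and 4.06. Both were among the 6 lowest of the 39 genes in CRL1506 + LPS, at log2 ratios of -0.53 and -0.57. *Mcm2* had levels of 3.60, 2.32 and 3.17, and *Mcm6* of 6.54, 5.30 and 6.25. The order of the arrays was the same for all 6 subunits.

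The 6 genes of helicase activation were the least lowered role in CRL1505 + LPS, with a median log2 ratio of -0.48 and 2 of 6 at least 2-fold lower. Both of these encode GINS subunits. *Gins1* had a log2 level of 3.47 in LPS, 2.15 in CRL1505 + LPS and 2.99 in CRL1506 + LPS, and *Gins2* of 2.74, 1.55 and 2.50. The other 2 subunits of the same complex gave ratios near 0 in CRL1505 + LPS, with *Gins3* at 3.97, 3.80 and 3.58 and *Gins4* at 2.42, 2.26 and 2.42. The log2 ratios of *Gins3* (-0.17) and *Gins4* (-0.16) in CRL1505 + LPS were within the spread between probes and changed sign among the settings.

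*Cdc45*, which joins MCM and GINS in the active helicase, had log2 levels of -1.10 in LPS, -1.89 in CRL1505 + LPS and -1.09 in CRL1506 + LPS, a log2 ratio of -0.79 for the first strain and 0.01 for the second. *Mcm10*, a separate activator outside the ring, was the only member besides *Tyms* above 0 in CRL1505 + LPS, at 3.85 in LPS, 4.08 in CRL1505 + LPS and 3.94 in CRL1506 + LPS. Its direction was not settled, since its second probe gave a log2 ratio of -0.98 and the value of 0.23 ran from -0.38 to 0.52 among the settings.

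**Figure D2:**
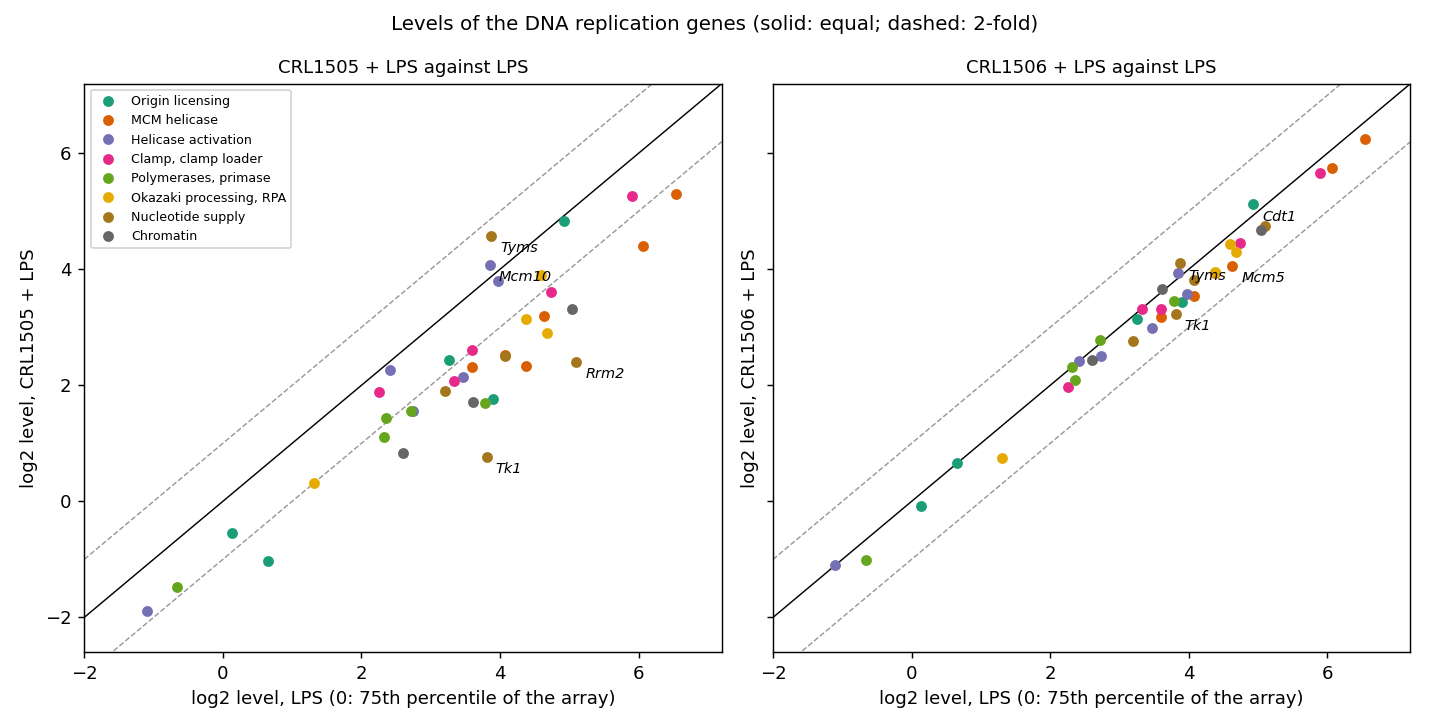
Log2 level of each of the 39 genes in LPS on the x axis and in CRL1505 + LPS (left) or CRL1506 + LPS (right) on the y axis, relative to the 75th percentile of each array and coloured by role. The vertical distance from the solid line is the log2 ratio. On the left *Tk1* (3.81 against 0.77) and *Rrm2* (5.10 against 2.40) lie farthest below it, and on the right all genes lie within the 2-fold lines.

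Of the sliding clamp and its loader, 2 of 5 genes were at least 2-fold lower in CRL1505 + LPS, with a median log2 ratio of -0.99. The clamp *Pcna*, which tethers polymerases to DNA, had a log2 ratio of -0.64 in CRL1505 + LPS and of -0.23 in CRL1506 + LPS. *Rfc2*, a small subunit of the loader, had log2 levels of 3.33 in LPS, 2.07 in CRL1505 + LPS and 3.32 in CRL1506 + LPS. *Rfc5* was at 4.74, 3.61 and 4.45, but its 3 probes ran from -1.13 to -0.03 in log2 ratio in CRL1505 + LPS. *Rfc4* lay just short of 2-fold at -0.99 and *Rfc3* nearer to LPS, with levels of 2.26, 1.88 and 1.98. *Rfc3* differed little between the strains, at log2 ratios of -0.37 and -0.28.

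The polymerase and primase genes had a median log2 ratio of -1.18 in CRL1505 + LPS, with 3 of 5 at least 2-fold lower. *Pold1*, the catalytic subunit of polymerase delta, was the lowest of them, with log2 levels of 3.79 in LPS, 1.69 in CRL1505 + LPS and 3.45 in CRL1506 + LPS, 4.29-fold lower for the first strain. *Pole*, its counterpart in polymerase epsilon, was at 2.32, 1.11 and 2.31. *Prim1*, the catalytic primase subunit, was at 2.72, 1.55 and 2.79. These last 2 genes were lower on the CRL1505 + LPS array only, with log2 ratios of -0.01 and 0.06 in CRL1506 + LPS. *Pola1* and *Prim2*, the partners in the polymerase alpha and primase complex, were at log2 ratios of -0.92 and -0.81 in CRL1505 + LPS, short of 2-fold, and at -0.28 and -0.35 in CRL1506 + LPS, where the probes of *Prim2* ran from -0.35 to 1.32.

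Among the genes that join Okazaki fragments and cover single strands, 2 of 4 were at least 2-fold lower in CRL1505 + LPS, with a median log2 ratio of -1.11. *Lig1*, the ligase that seals the fragments, had log2 levels of 4.68 in LPS, 2.91 in CRL1505 + LPS and 4.29 in CRL1506 + LPS, 3.40-fold lower for the first strain. *Rpa1*, the large subunit of replication protein A, was at 4.38, 3.15 and 3.96. Its partner *Rpa2* was at 1.31, 0.32 and 0.75, just short of 2-fold in CRL1505 + LPS at -0.99 and among the lowest of the group in CRL1506 + LPS at -0.56. *Fen1*, the flap endonuclease, had log2 ratios of -0.69 and -0.16.

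Nucleotide supply held the widest range of any role, where 4 of 5 genes were at least 2-fold lower and 1 was above 0 for CRL1505 + LPS. *Tk1*, the salvage enzyme that phosphorylates thymidine, had log2 levels of 3.81 in LPS, 0.77 in CRL1505 + LPS and 3.23 in CRL1506 + LPS. It was 8.21-fold lower in CRL1505 + LPS, and its 3 probes above background there gave log2 ratios from -3.11 to -2.89. *Rrm2*, the regulated small subunit of ribonucleotide reductase, was at 5.10, 2.40 and 4.75, 6.51-fold lower for CRL1505, and had only 1 probe. These were the lowest ratios of all 39 genes. The probe of *Tk1* lies at chr11:117676845-117676904 on the minus strand and that of *Rrm2* at chr12:25398824-25398883 on the plus strand (mm9, as the files give them), and the exon or UTR they fall in was not determined here.

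The large reductase subunit *Rrm1* was at 4.07 in LPS, 2.51 in CRL1505 + LPS and 3.82 in CRL1506 + LPS, a smaller difference than that of *Rrm2*. *Dut*, which removes dUTP, was at 3.20, 1.91 and 2.76. *Tyms*, which makes dTMP from dUMP, went the other way, at 3.87 in LPS, 4.58 in CRL1505 + LPS and 4.10 in CRL1506 + LPS. Its 3 probes gave log2 ratios from 0.36 to 0.71 in CRL1505 + LPS and from 0.13 to 1.83 in CRL1506 + LPS, and neither ratio changed sign among the settings. The 2 thymidylate routes thus stood apart on these arrays, with a log2 ratio of -3.04 for the salvage kinase and 0.71 for the synthase in CRL1505 + LPS.

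All 3 genes of chromatin assembly and maintenance were at least 2-fold lower in CRL1505 + LPS, with log2 ratios from -1.88 to -1.73. *Chaf1a* and *Chaf1b* encode subunits of CAF-1, which places histones on new DNA. *Chaf1a* had log2 levels of 2.60 in LPS, 0.83 in CRL1505 + LPS and 2.44 in CRL1506 + LPS, and *Chaf1b* of 3.61, 1.72 and 3.66. *Uhrf1*, which guides DNA methylation after replication, was at 5.04, 3.32 and 4.67, and its second probe gave a log2 ratio of -3.03. In CRL1506 + LPS the 3 genes were closer to LPS, at log2 ratios of -0.16, 0.05 and -0.37.

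**Figure D3:**
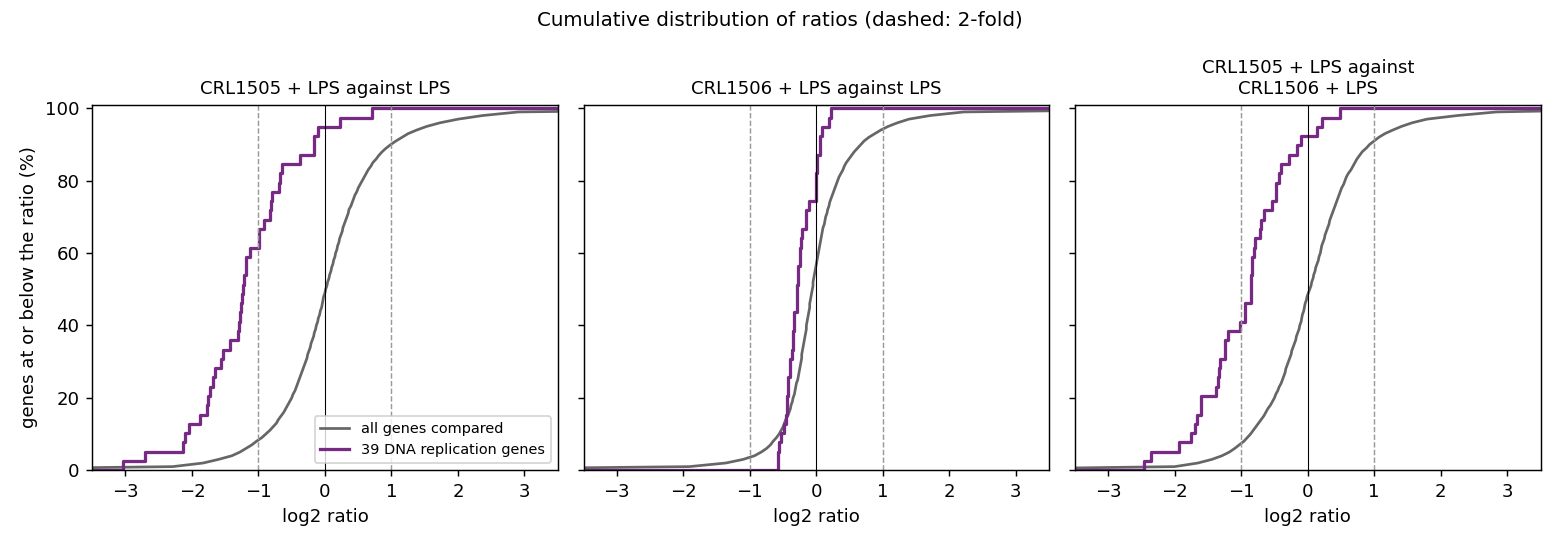
Share of genes, in percent, at or below each log2 ratio, for the 39 replication genes in purple and all genes compared in grey, in each of the 3 pairwise comparisons. In CRL1505 + LPS against LPS the purple curve lies left of the grey one from its lowest point of -3.04 upward, with medians of -1.23 and 0.01, while in CRL1506 + LPS against LPS it is narrow, between -0.58 and 0.22, and crosses the grey one.

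The strains were also set directly against each other. In CRL1505 + LPS against CRL1506 + LPS, 16 of the 39 genes were at least 2-fold lower and 36 were lower, with a median log2 ratio of -0.85. Over all 15780 genes compared, 7.47% were at least 2-fold lower, 48% lay at or below -0.01 and the median was 0.03. For the 39 genes, the 2-fold count and the median depended on scaling, with 8 genes and -0.36 under the array median and 28 genes and -1.24 under spike-in scaling. A total of 33 genes were lower by more than the median SD between probes, 0.32 in this comparison, and 1, *Tyms*, was higher by more than it. Over all genes compared, the 28th percentile was -0.33 and the 68th 0.32. The difference was widest for *Tk1* (-2.46), *Rrm2* (-2.35), *Chaf1b* (-1.94), *Pold1* (-1.76), *Cdc6* (-1.69) and *Gmnn* (-1.67), in that order. The 3 genes above 0 were *Tyms* (0.48), *Gins3* (0.22) and *Mcm10* (0.14), and their direction was not settled. Other probes reached -1.23 for *Tyms* and -1.82 for *Mcm10*, and the values of *Gins3* and *Mcm10* lay within that SD and changed sign among the normalizations, from -0.16 to 0.72 and from -0.24 to 0.64. Of the 36 lower genes, *Orc1*, *Cdt1*, *Gins4*, *Pcna*, *Rfc3*, *Prim2* and *Rpa2* also changed sign among the normalizations. Their highest values ran from 0.02 for *Orc1* to 0.40 for *Rfc3*. Other probes of *Rfc3* and *Rfc5* reached 0.12 and 0.24. Under the reported setting, the CRL1505 + LPS array was the lowest of the 3 arrays for 36 of 39 genes. Here too the arrays come from different slides.

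How far the pattern reached beyond the 39 genes was described with a list of 42 other replication genes. In CRL1505 + LPS, 12 of them were at least 2-fold lower and 1 at least 2-fold higher, against 8.41% and 9.93% of all genes. The median log2 ratio of the 42 was -0.62. The lowest were *Tonsl* (-2.54) and *Clspn* (-2.24), which act at forks, and *Ticrr* (-1.61), which helps to fire origins. The highest were *Samhd1* (2.11), which breaks down deoxynucleotides, *Dck* (0.99), a salvage kinase of deoxycytidine, and *Timeless* (0.39), a fork protection gene. *Samhd1* had log2 levels of 4.34 in LPS, 6.45 in CRL1505 + LPS and 4.91 in CRL1506 + LPS, so that within nucleotide metabolism the ratios ran from -3.04 for *Tk1* to 2.11 for this gene. In CRL1506 + LPS, 0 of the 42 were past 2-fold, where 3.53% of all genes were at least 2-fold lower and 5.67% at least 2-fold higher. The median of the 42 was -0.05, and their range was from -0.68 for *Pole2* to 0.97 for *Pola2*.

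Regulators of E2F activity and G1/S were lower in part. In CRL1505 + LPS, 10 of the 27 compared were at least 2-fold lower and 0 at least 2-fold higher, with a median log2 ratio of -0.67, and *Ccne2*, not well above background in CRL1505 + LPS, was given no ratio. The lowest were *Cdkn2c* (-2.85), a cyclin-dependent kinase inhibitor, *E2f7* (-2.80) and *E2f8* (-2.36), while *E2f4* (0.75), *Cdkn1a* (0.58) and *E2f5* (0.50) were the highest. Genes of E2F factors thus lay at both ends of this list. The mitosis list had 14 of 27 at least 2-fold lower and all 27 below 0, with a median of -1.02. Over all genes compared in CRL1505 + LPS, 8.41% were at least 2-fold lower and 49.3% below 0. In CRL1506 + LPS, 1 of 28 G1/S regulators and 1 of 27 mitosis genes were at least 2-fold lower, near the share of all genes, 3.53%. The medians of these lists were -0.44 and -0.50. Beside these, the 39 replication genes had the lowest median of the 4 lists in CRL1505 + LPS and not in CRL1506 + LPS, where it was -0.29. This rank depends on how the lists were drawn and is not an independent comparison. Members and lists were chosen with earlier results of these data known. The 10 macrophage markers went both ways, with medians of 0.15 in CRL1505 + LPS and -0.22 in CRL1506 + LPS. In CRL1505 + LPS *Fcgr1* (2.40) and *Adgre1* (2.27) were at least 2-fold higher and *Csf1r* (-1.47) at least 2-fold lower, and in CRL1506 + LPS *Fcgr1* was at 0.95, *Csf1r* at -0.87 and *Adgre1* 2-fold higher. The part of this shift in the replication genes' ratios was not tested.

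**Figure D4:**
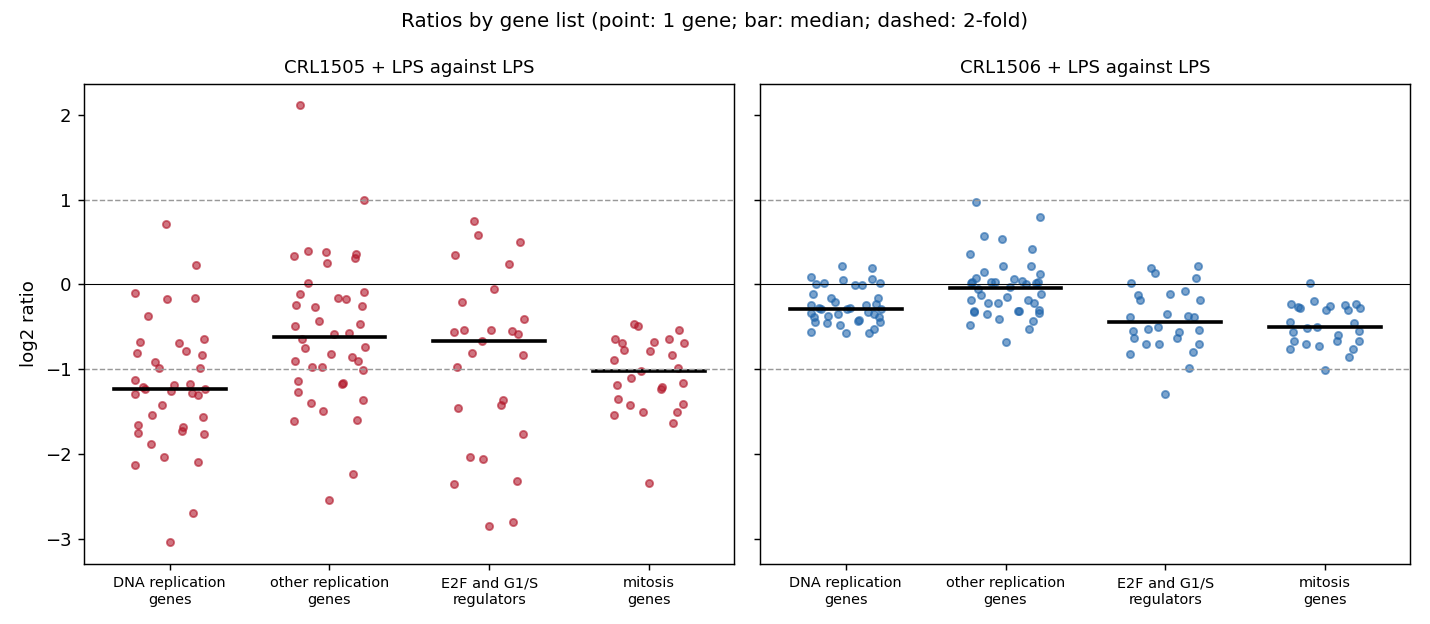
Log2 ratio to LPS of each gene in 4 lists, with the median of each list as a bar and 2-fold as dashed lines, for CRL1505 + LPS (left) and CRL1506 + LPS (right). The medians on the left are -1.23, -0.62, -0.67 and -1.02, and on the right -0.29, -0.05, -0.44 and -0.50.

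Scaling set how many genes passed 2-fold. The array median in place of the 75th percentile left 15 of 39 genes 2-fold lower in CRL1505 + LPS, and spike-in probes gave 33, while the median of all genes moved to 0.35 and -0.45. Relative to the median of all genes measured, the median of the 39 genes was -1.29 under both and under the reported setting. This equality was fixed in advance, since these scalings shift all ratios of a comparison by the same amount. A total of 15 genes were at least 2-fold lower under all 12 settings, namely *Gmnn*, *Cdc6*, *Mcm3*, *Mcm4*, *Mcm5*, *Mcm7*, *Gins1*, *Pold1*, *Lig1*, *Rrm1*, *Rrm2*, *Tk1*, *Chaf1a*, *Chaf1b* and *Uhrf1*. In CRL1506 + LPS, 0 genes were 2-fold lower under any setting, and 12 changed sign among them, *Cdc6*, *Cdt1*, *Orc1*, *Orc6*, *Mcm10*, *Cdc45*, *Gins4*, *Rfc2*, *Pole*, *Prim1*, *Prim2* and *Chaf1b*.

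**Figure D5:**
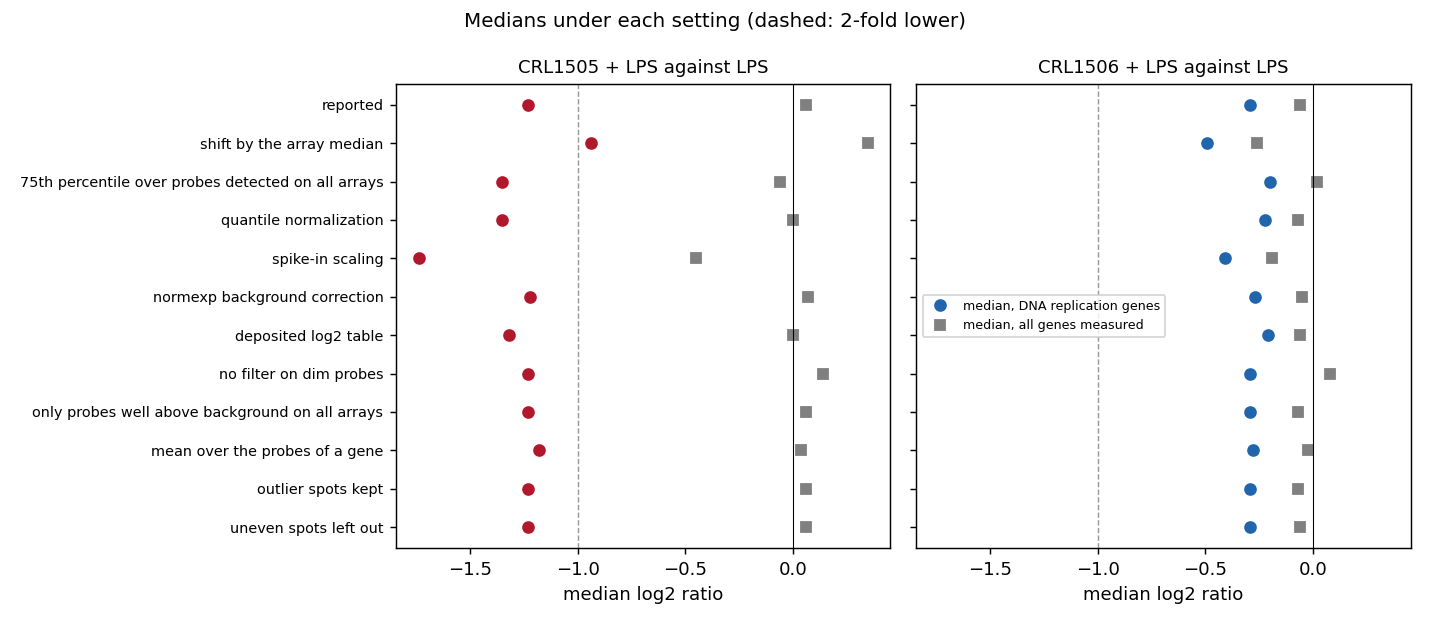
Median log2 ratio to LPS of the 39 replication genes (circles) and of all genes measured (squares) under the reported and 11 other settings, for CRL1505 + LPS (left, red) and CRL1506 + LPS (right, blue). On the left the circles run from -1.74 to -0.94 and the squares move with the scaling settings, from -0.45 to 0.35.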

How the data were processed

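The authors deposited, for each of the 3 arrays, the output of Agilent Feature Extraction (version 12.0.3.1 per the file headers), whose processed signal per spot is an intensity corrected for background and not normalized between arrays. They also deposited a table of log2 values normalized between arrays, whose settings are not given in the sources used here, and which served as an alternative. Per the labels' processing notes, limma was used. For the reported values, the 75th percentile over gene spots was subtracted from the log2 processed signals of each array, outlier spots were left out, repeated spots were averaged, and a gene was shown by its brightest probe, one with an outlier spot only where no other existed. Genes well above background on neither array were not compared, and a gene well above it on 1 side only gave a bound, or no ratio where that bound was under 1-fold.

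The 2-fold threshold is that of the study's methods, and their t-test could not be run on single arrays. All members were named, with levels for those past 2-fold and the 6 lowest and 6 highest in each comparison. Of the other lists, the 3 lowest and 3 highest in each comparison could be named. Members, roles and lists were chosen with earlier results of these data known. The number of arrays limits the precision, and repeated spots had a median SD of 0.04 on the log2 scale on each array. Python 3.11.15 (pandas 2.3.3, NumPy 2.4.6) and R 4.3.3 with limma 3.58.1 were used, and the procedure was tested on simulated data.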

Additional observations from a re-analysis of the deposited data

How the results depend on the processing

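For CRL1505 + LPS against LPS, the median of the replication genes relative to all genes measured ran from -1.37 to -1.21 over all settings. Scalings that shift a whole array could not move this value. Shifting by the array median gave 15 genes at least 2-fold lower and 1 at least 2-fold higher, with a median log2 ratio of -0.94. Spike-in scaling gave a median of -1.74. At a 1.5-fold threshold, 33 genes were lower, where 17.2% of all genes were, and 1, *Tyms*, was higher. Taking ratios relative to the median of all genes, a choice added after seeing the data, gave 26 genes at least 2-fold lower. For CRL1505 + LPS against CRL1506 + LPS, the array median gave 8 genes at least 2-fold lower and a median of -0.36, a 75th percentile taken only over probes detected on every array gave 25 genes, spike-in scaling gave 28 genes and a median of -1.24, and a 1.5-fold threshold gave 28. Counts at 2-fold in CRL1506 + LPS against LPS stayed at 0 in both directions. Of the values of single genes under the other settings, 765 moved by less than the spread between probes, 93 by more, and 0 past 2-fold changed sign. The first number includes settings that changed only the filters on dim, outlier or uneven spots. Those could not move the 39 genes, which were all well above background, with 0 outlier spots and 0 uneven spots in the probes used. The second number includes the array median and spike-in scalings, which shift all ratios of a comparison by the same amount. In CRL1505 + LPS each of these shifts moved all 39 genes by more than the spread, so the genes were not separate checks. A kept sign is not a kept call, since 15 of the 24 genes stayed 2-fold lower in CRL1505 + LPS under all settings. The cause of these differences between scalings was not tested. No leave-one-out or replicate check was possible with 1 array per condition. No paired analysis was possible because each group has 1 array.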
